A study of Homo sapiens with 9 samples.

Results

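Compact protein-coding genes were examined for contacts of the splicing factor SF3B1. A binding site was included when its centre lay inside exactly 1 protein-coding RefSeq gene span, that span was under 8 kb, and the gene symbol did not start with RPL, RPS, MRPL or MRPS, the prefixes of cytosolic and mitochondrial ribosomal protein genes. Gene length and name thus chose the sites, and no measured value did. In all, 3695 of 96852 sites met the rule, or 3.82% of the list (95% Wilson interval 3.70% to 3.94%). They lay in 698 of the 4640 nuclear genes that the length and name rule admits. These genes are called short genes here. Genes under 8 kb with any of these prefixes are called ribosomal protein genes, by symbol alone.

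The sites came from K562, an established human leukaemia cell line. Its labels give a chronic lymphoid origin, whereas K562 is known as a chronic myeloid leukaemia line with erythroid features. In iCLIP, RNA is fixed to the proteins that touch it by ultraviolet light, an antibody recovers the protein, and sequencing marks the linked nucleotides. The series holds 9 samples, all UV crosslinked: SF3B1 pulled down from cells with genotype SF3B1 wt/wt (3 samples), SF3B1 from cells with genotype SF3B1 K700E/wt (2 samples), and U2AF2 from SF3B1 wt/wt cells of another provider (4 samples). The labels attach the 1 list used here to the 3 SF3B1 wt/wt samples, and the other 6 samples were not analysed here. The list merges replicates, and its header speaks of sites reproducible in all replicates of either condition, so no single site is assigned to a genotype below. It holds positions only, with a score of 0 in each row, so read depth is unknown, and neither a spread between cultures nor a test over samples can be given. Intervals below cover counting error only, and sites within a gene are not independent.

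SF3B1 is the largest subunit of the SF3b complex of the U2 snRNP, the particle that pairs with the branch point of an intron. It holds the branch point adenosine and touches the intron on both sides of it, a short way upstream of the 3′ splice site. A tract of pyrimidines between the branch point and the splice site is bound by U2AF2. Compact genes tend to have short introns, often just long enough for the splice sites, branch point and pyrimidine tract, and many of them encode abundant housekeeping proteins. A few, such as JUN and most histone genes, have no intron at all.

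Sequence could be read for sites that fell inside a RefSeq promoter window (250 bases before to 50 bases from a gene start, GRCh38.p14) or inside a RefSeq microRNA hairpin. Promoter windows were listed for 570 of the 698 genes. A total of 35 sites lay in a window, of the gene itself or of a neighbour, with 12 bases to spare on both sides. The windows below are genomic letters on the strand of the site, 5′ to 3′, with the 5 nt site in capitals. The first set is shown because each site covers or nearly covers the annotated first base of the RNA. Sites of the histone gene H3C4 at base 6 and 3 bases before a start lay as near, and are printed with the second set. In EEF1A1, EIF4A2 and HSP90AB1 the centre of the site was base 3 of the RefSeq start, and in RACK1 it was base 6. EEF1A1 encodes a translation elongation factor, EIF4A2 a helicase of translation initiation, RACK1 a scaffold on the ribosome and HSP90AB1 a cytosolic chaperone. The sites are at chr6:73521028-73521032 (minus), chr3:186783577-186783581 (plus), chr5:181243899-181243903 (minus) and chr6:44247101-44247105 (plus).
EEF1A1: gccgtgaacgttCTTTTtcgcaacgggtt
EIF4A2: gggcgccgctgtCTTTTcagtcgggcgct
RACK1: cttttctctctcTCTTTcactgcaaggcg
HSP90AB1: cacgcagtagctCTCTCgagtcactccgg
All 4 sites consisted of C and T alone, but C and T also made up 84% of the site bases over all 35 sites. Over the 398 sites of the whole list in such windows, the share of C and T was 80.3%. A pyrimidine run at the start of an RNA is known from messengers of the translation machinery. The HSP90AB1 site lay 910 nt into the outermost RefSeq span, since that gene has an earlier annotated start as well.

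The second set shows the ID1 gene, one of the shortest with several sites, and H3C4, a histone gene. ID1 encodes an inhibitor of helix-loop-helix transcription factors. Its sites at chr20:31605312-31605316, chr20:31605343-31605347 and chr20:31605358-31605362 (plus) had their centres at nt 26, 57 and 72 of the gene. H3C4 encodes a histone H3, and its sites at chr6:26197315-26197319, chr6:26197287-26197291, chr6:26197279-26197283 and chr6:26197261-26197265 (minus) were centred from 31 bases before to base 24 of a RefSeq start.
ID1, nt 26: ttaactgttccaTTTTCcgtatctgcttc
ID1, nt 57: gcttccacctcaTTTTTttcgctttgccc
ID1, nt 72: ttttcgctttgcCCATTctgtttcagcca
H3C4, 31 before: aacaggggtgtcTTTATatatacgggtac
H3C4, 3 before: cgaaaggctagaCTTTCgttttttcgtca
H3C4, base 6: tagactttcgttTTTTCgtcatttagcag
H3C4, base 24: tcatttagcaggGTTTAgaagttcgcaat
Each of these 7 sites held at least 2 T. Over all 35 sites, T made up 62.3% of the site bases and 29.5% of the flanking bases, and 24 sites held 3 or more T. Over the 398 sites of the whole list that lay in such windows, which include the 35, the shares of T were 57.7% and 31.9%, and 266 sites held 3 or more T. The windows cover gene starts only, so these shares describe sites near starts. No other protein was compared, so whether T is a preference of SF3B1 was not tested.

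The third set places sites inside microRNA hairpins, and is shown because a hairpin gives the letters on the way to its end. Of 41 hairpins with a listed sequence inside short genes with a site, 3 held a whole site on their own strand: MIR1236 in NELFE, MIR6515 in CALR and MIR6816 in TRMT2A. miR-1236 is known as a mirtron, a microRNA whose hairpin is a whole short intron. NELFE is a subunit of the negative elongation factor of RNA polymerase II, CALR the chaperone calreticulin of the endoplasmic reticulum, and TRMT2A a tRNA methyltransferase. The hairpins lie at chr6:31956839-31956940 (minus), chr19:12940484-12940540 (plus) and chr22:20114686-20114751 (minus).
MIR1236 in NELFE: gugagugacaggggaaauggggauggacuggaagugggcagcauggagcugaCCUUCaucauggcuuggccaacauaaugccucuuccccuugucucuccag
MIR6515 in CALR: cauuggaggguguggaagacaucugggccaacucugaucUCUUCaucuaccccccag
MIR6816 in TRMT2A: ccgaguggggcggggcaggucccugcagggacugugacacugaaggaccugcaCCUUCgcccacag
All 3 hairpins ended in AG, as did 263 of the 1562 hairpins in the table (16.8%), and MIR1236 also began with GU. The centre of the site lay 47 nt before the last base of MIR1236, 15 nt before that of MIR6515 and 10 nt before that of MIR6816. In MIR1236 the run of pyrimidines that precedes the final AG lay downstream of the site.

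One site fell on a small nuclear RNA. The gene span of C12orf57 contains RNU7-1, the U7 RNA of the particle that trims histone messengers, and the only site in C12orf57 lay inside it at chr12:6943840-6943844 (plus).
RNU7-1 in C12orf57: tcttttagaattTGTCTagtaggctttct
The site lay at bases 25 to 29 of the 63 nt RNA. Of all 3695 sites, 5 lay in snoRNA genes, 5 in microRNA genes, 24 in pseudogenes, 4 in transcribed pseudogenes and 78 in long non-coding RNA genes that overlap the short gene. The microRNA sites were the 3 above and 2 in MIR6875, within TRIP6, which is not among the hairpins printed above. In total 120 sites, or 3.25%, also lay in some gene other than a protein-coding one, so their host RNA is uncertain.

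Short genes contained a site less often than longer ones, and among them the share with a site rose with length. In the 4640 short genes the share with a site was 15.0% (Wilson interval 14.04% to 16.1%), against 43.2% of 15218 longer genes outside the ribosomal families. The share was 3.53% below 2 kb, 13.4% from 2 to 4 kb, 20.7% from 4 to 6 kb and 25.8% from 6 to 8 kb. It reached 51.0% from 64 to 128 kb and was 39.2% from 128 kb upward. Short genes with a site had a median length of 5113 nt and those without 3295.5 nt. The list carries no expression values, so absence of a site may also go with low RNA, which was not tested. A gene that overlaps another protein-coding gene also counted as without a site if all its sites lay in both.

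Counted over all genes, with or without a site, the density was lowest under 2 kb among the short classes. It was 0.0885 sites per kb there (128 sites in 1245 genes, exact Poisson interval 0.0738 to 0.105), 0.207 from 2 to 4 kb, 0.216 from 4 to 6 kb and 0.232 from 6 to 8 kb. It was 0.212 from 8 to 16 kb and 0.023 from 128 kb upward. The 4640 short genes together had 0.210 sites per kb and longer genes 0.0682, or 0.796 and 5.71 sites per gene. Among genes with a site the order within the short classes was the opposite, from 1.83 sites per kb under 2 kb (interval 1.53 to 2.18) to 0.901 from 6 to 8 kb. A gene kept for having a site has at least 1 site per its length, which sets a higher floor for a shorter gene, so this order describes the kept genes only. The 698 short genes with a site had 1.06 sites per kb, and the median gene had 0.810 (quartiles 0.371 and 1.61). Their median was 4 sites per gene, and that of longer genes with a site was 7. Just inside the limit, genes of 7 to 8 kb had a share of 25.1% and 0.207 sites per kb over all genes, and just outside it, genes of 8 to 9 kb had 30.6% and 0.243.

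**Figure D1:**
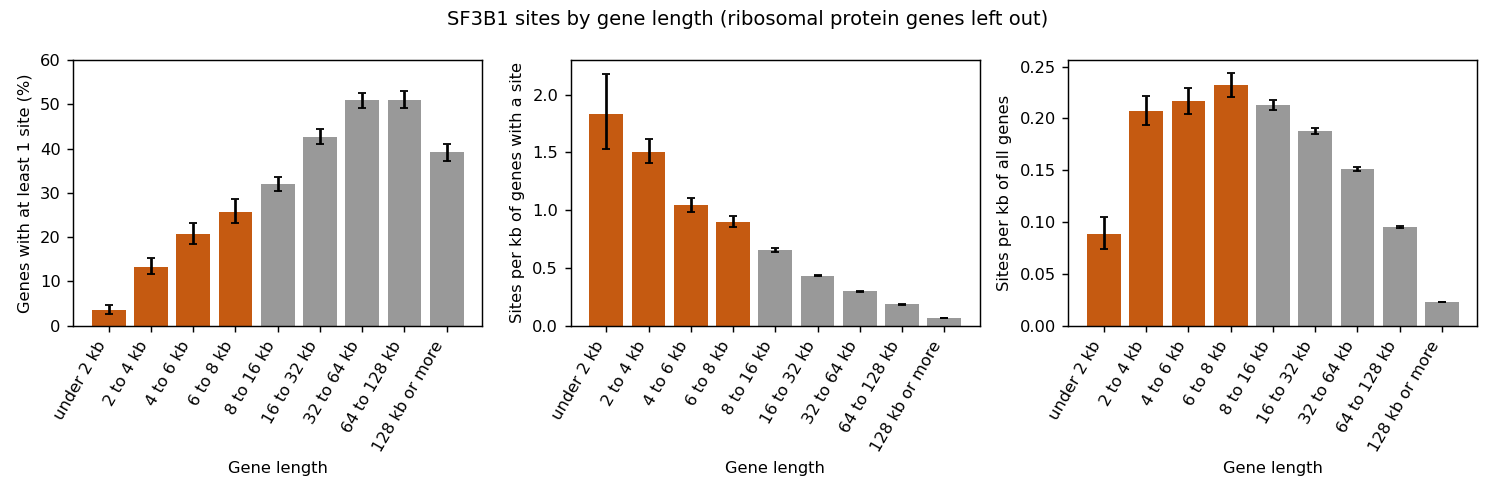
Left, percent of protein-coding genes with at least 1 site, by gene length, with 95% Wilson intervals. Middle, sites per kb of the genes that have a site, and right, sites per kb of all genes, with exact Poisson intervals. Orange bars are the short genes and grey bars longer ones. The share rises from 3.53% to 25.8% over the orange bars and the density over all genes from 0.0885 to 0.232 sites per kb, while the density among genes kept for having a site falls from 1.83 to 0.901.

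Sites were unevenly spread over the short genes that had any. Of the 698 genes, 161 had 1 site, 296 had 5 or more, 106 had 10 or more and 18 had 20 or more. The 69 genes with the most sites held 1199 sites, or 32.4% of all. Within the short genes with a site, Spearman's rho of site number and gene length was 0.15 over 698 genes, and in longer genes it was 0.18 over 6569. Genes are not independent replicates, and no p-value is given.

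The 10 short genes with the most sites had 24 to 35 each. EIF4A2 on chromosome 3 (186783577 to 186789897, plus) led with 35 sites in 6321 nt, the first at nt 3 and the last at nt 5624, in 21 clusters linked at 60 nt or less. HNRNPA1 on chromosome 12 (54280726 to 54287087), a nuclear RNA-binding protein that takes part in splice site choice, had 33 sites spread over 95.2% of its span. RACK1 on chromosome 5 (181236897 to 181243906, minus) had 30 sites spread over 98.8%. The sites of EIF4A2 spanned 88.9% and left the last 697 nt without a site, and HNRNPA1 had an internal stretch of 1768 nt between neighbouring sites.

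ATP5F1B, the β subunit of mitochondrial ATP synthase, had 29 sites, 22 of them before the midpoint of the gene. PIM1, a serine/threonine kinase gene with oncogenic activity, had 27 sites between nt 555 and nt 4482. HSP90AB1 had 26 sites, with 12 before the midpoint and 14 after it. HSPA5, the main chaperone of the endoplasmic reticulum, had 25 sites, of which 23 lay before the midpoint. METTL17, which acts in assembly of the mitochondrial ribosome, also had 25, and its first site was at nt 2675. SRSF7, a serine/arginine-rich splicing factor, had 25 sites, and HNRNPDL, another hnRNP protein, had 24. The sites of SRSF7 and HNRNPDL covered only 45.1% and 43.4% of the gene, and 2605 and 2233 nt at the end held no site.

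**Figure D2:**
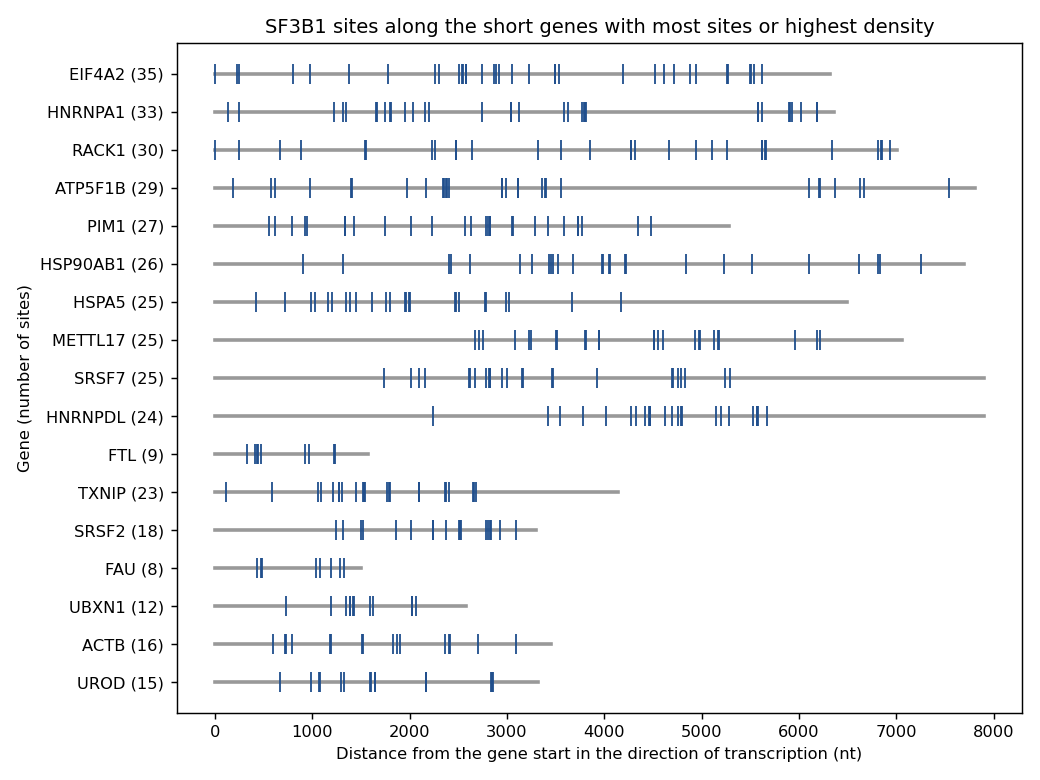
Positions of single SF3B1 sites (blue ticks) along the gene span (grey), in nt from the outermost RefSeq start, for the 10 short genes with most sites and, below them, the further genes with the highest density. Numbers in brackets are sites per gene. The sites of EIF4A2, HNRNPA1 and RACK1 span 88.9%, 95.2% and 98.8% of the gene, while those of METTL17, SRSF7 and HNRNPDL begin at nt 2675, 1733 and 2237.

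Ranked by sites per kb among genes with at least 5 sites, FTL, the ferritin light chain, was highest with 5.73 sites per kb. Its 9 sites at nt 332, 408, 433, 438, 471, 923, 963, 1228 and 1233 formed 4 clusters in a gene of 1571 nt. TXNIP, a thioredoxin-binding arrestin-like protein, followed with 5.55 sites per kb and 23 sites. EIF4A2 had 5.54 and SRSF2, a splicing factor of the same family as SRSF7, had 5.46. FAU had 5.32 sites per kb. It encodes a ribosomal protein fused to a ubiquitin-like one and stayed in because its symbol has none of the 4 prefixes. The 8 FAU sites were at nt 437, 476, 481, 1041, 1082, 1195, 1280 and 1321, and 4 pairs of them were 25 to 45 nt apart. HNRNPA1 had 5.19, PIM1 5.12, UBXN1 4.66, ACTB 4.63 and UROD 4.52 sites per kb. UBXN1 is a cofactor of the p97 ATPase, ACTB is β-actin, and UROD is an enzyme of haem synthesis. None of the 698 genes reached 6 sites per kb.

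The shortest genes with at least 3 sites were HBA1, ID1, ATXN3L, SH3BGRL3 and FAU. HBA1, an α-globin gene of 843 nt, had its sites at nt 530, 543 and 793, and since HBA2 is almost identical to it, reads of the pair are hard to assign. SH3BGRL3, a small thioredoxin-fold protein, had 4 sites within a stretch from nt 624 to nt 647, a single cluster in a gene of 1437 nt. ATXN3L had 4 sites, all against the annotated strand of the gene.

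Distances between neighbouring sites were taken within a gene, so the 8 kb limit caps them in short genes. The median distance between neighbours on a strand of a gene was 133 nt (quartiles 24 and 383), against 146 nt in genes of 8 to 32 kb and 163 nt in genes of 32 kb or more. The upper quartile differed most, at 383, 647 and 1903 nt, an order that cannot be read apart from gene length. Neighbours 5 to 12 nt apart made up 18.99% in short genes (Wilson interval 17.6% to 20.4%), 17.1% in the middle class and 17.2% in the long class. Neighbours at most 60 nt apart made up 42.4%, 39.4% and 39.7%. The share of neighbours 5 to 12 nt apart in short genes depended on how touching sites were counted, and was 9.02% with 1 site per region number of the list.

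The narrow spacing of 25 to 45 nt was present in short genes. There were 731 pairs 25 to 45 nt apart and 218 pairs 46 to 66 nt apart, a ratio of 3.35. Longer genes gave ratios of 3.18 (8 to 32 kb) and 3.72 (32 kb or more). As a share of all pairs 25 to 66 nt apart, the nearer span held 77.0% in short genes (74.2% to 79.6%), 76.1% in the middle class and 78.8% in the long class, so the interval for short genes included the values of both other classes. The mode after summing over 3 adjacent distances was 35 nt in short genes, 38 nt in the middle class and 37 nt in the long class. A partner 25 to 45 nt away was found for 32.4% of sites in short genes and for 37.7% in the long class. EIF4A2 had the most pairs at this spacing, 12, followed by HSPA5 with 10 and by ATP5F1B and UBXN1 with 9 each.

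Beyond 100 nt, the number of pairs in short genes rose again. Per 1000 sites there were 33.0 pairs 81 to 100 nt apart, 64.1 pairs 161 to 180 nt apart and 69.3 pairs 221 to 240 nt apart. In genes of 32 kb or more the same distances gave 36.1, 60.2 and 45.8 pairs per 1000 sites, and in genes of 8 to 32 kb 38.5, 71.3 and 58.4. At 301 to 320 nt there were 57.4 pairs per 1000 sites in short genes, 50.1 in the middle class and 34.98 in the long class. Ribosomal protein genes under 8 kb had 72.2 pairs per 1000 sites at 161 to 180 nt, 84.5 at 221 to 240 nt and 55.9 at 301 to 320 nt. Pairs 140 to 180 nt apart numbered 456 and pairs 60 to 100 nt apart 243, a ratio of 1.88, against 1.81 and 1.66 in the middle and long classes. Pairs per 1000 sites also depend on how densely sites lie. Short genes with a site had 1.06 sites per kb and longer ones 0.174, so these differences cannot be read apart from density. At 581 to 600 nt the values were 36.0, 37.6 and 24.1 in the short, middle and long classes. No test of these differences was made, since the list has no replicates.

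**Figure D3:**
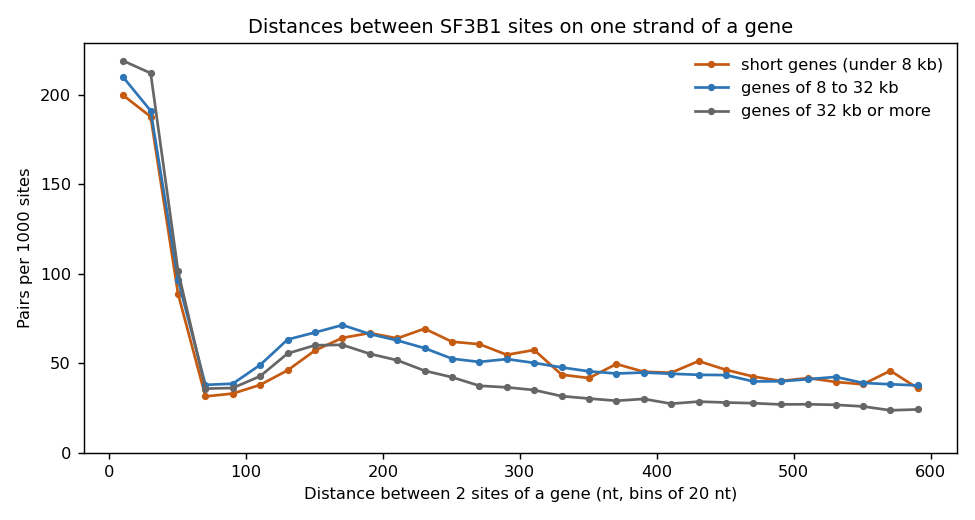
Number of site pairs per 1000 sites, in bins of 20 nt, against the distance between both sites on a strand of a gene, for short genes, genes of 8 to 32 kb and genes of 32 kb or more. All 3 lines fall to a low near 61 to 100 nt and rise again. The line for short genes lies between 60.6 and 69.3 pairs per 1000 sites from 161 to 280 nt, and that of the longest genes has fallen to 37.4 at 261 to 280 nt.

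When sites within 60 nt of their neighbour were joined, short genes had 2425 clusters, with 1.52 sites each on average, and 64.7% held 1 site. The averages were 1.54 in genes of 8 to 32 kb and 1.59 in genes of 32 kb or more. The distance from one cluster to the next had a median of 326.5 nt in short genes, 444.7 nt in the middle class and 1173.5 nt in the long class, whereas the lowest 10% of these distances ended at 132, 128 and 139 nt. The short distances thus differed less between the 3 classes than the median did, but joining at 60 nt sets the same floor under them in each class. Gene length limits these distances too, so the medians cannot be read apart from it. Clusters made of 2 elements 25 to 45 nt apart numbered 383 in 274 short genes, with 494 sites in the upstream and 469 in the downstream elements. The largest cluster, 7 sites, lay at 96.2% of the length of PDCD5, which encodes a programmed cell death protein. Clusters of 6 sites lay in MLF2 (myeloid leukaemia factor 2) and in SRSF5, and 16 further clusters held 5 sites, among them 1 each in EIF4A2, ATP5F1B, SRSF7, NOP56 and EGR1.

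Sites in short genes were most frequent in the middle of the gene. Each of the 296 short genes with at least 5 sites was divided into 10 equal stretches in the direction of transcription. The first stretch held 106 of 2853 sites (3.72%), the fifth 395 (13.8%) and the last 164 (5.75%). Stretches 4 to 7 together held 51.9% (Wilson interval 50.04% to 53.7%), against 44.96% in genes of 8 to 32 kb and 41.9% in genes of 32 kb or more. In ribosomal protein genes under 8 kb the share was lower than in all of these, 33.4% (Wilson interval up to 37.0%), so a central excess was not shared by all genes of this length. In the long class the share rose from 4.31% in the first stretch to 14.7% in the last. Past the midpoint of the gene lay 50.7% of the sites in short genes (48.8% to 52.5%), 59.9% in the middle class and 65.5% in the long class. Within short genes the central share hardly varied with length, at 52.0%, 52.1% and 52.0% for genes of 2 to 4, 4 to 6 and 6 to 8 kb, and it was 41.7% in the 48 sites of genes under 2 kb (28.8% to 55.7%).

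**Figure D4:**
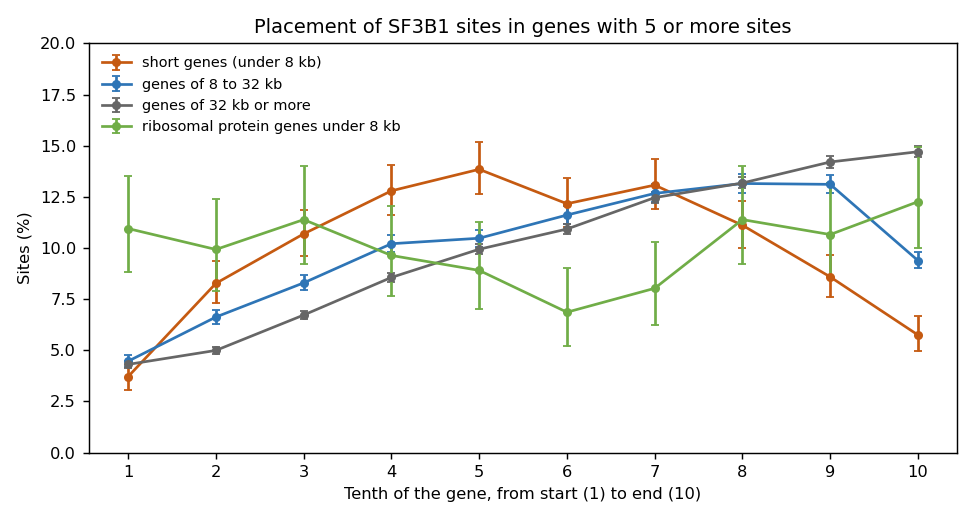
Percent of sites in each of 10 equal stretches of the gene, from start to end, in genes with at least 5 sites, with 95% Wilson intervals. In short genes the share is highest in stretch 5 (13.8%) and low at both ends (3.72% and 5.75%), whereas in genes of 32 kb or more it rises to 14.7% at the end. Ribosomal protein genes under 8 kb hold 10.9% in the first stretch.

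Sites were sparse at both ends of short genes. Among the 296 genes that had 5 sites or more, the first site lay a median of 1124 nt after the start (quartiles 531 and 1906) and the last a median of 947.5 nt before the end (quartiles 444.5 and 1696). The sites in between covered a median of 51.6% of the gene. Of all 3695 sites, 9 (0.244%) lay in the first 50 nt of the gene span, 42 (1.14%) in the first 200 nt and 191 (5.17%) in the first 500 nt. At the other end, 6 lay in the last 50 nt, 59 (1.60%) in the last 200 nt and 271 (7.33%) in the last 500 nt. Ribosomal protein genes of the same length, which the rule leaves out, had 33 of 734 sites (4.496%, Wilson interval 3.22% to 6.25%) in the first 50 nt. Of the 9 early sites, 8 lay on the strand of EEF1A1, EIF4A2, RACK1, UQCR10, ID1, GSTP1, GAPDH and H3-3B, at nt 3, 3, 6, 21, 26, 33, 40 and 40. The other, at nt 47 of HOXB2, was on the strand opposite to the other 6 sites of that gene, whose direction was taken from those sites. EEF1A1, EIF4A2 and RACK1 act in translation, and their windows are printed above.

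The even split around the midpoint was an average over genes that differed. In 155 of the 296 genes the median site lay past the midpoint, and in 141 before it. Of 106 genes with at least 10 sites, 13 had at least 90% of them before the midpoint and 12 had at least 90% past it. All sites lay before the midpoint in RBM3 (15 sites), TPT1 (13), EGR1 (12), EIF1 (12), H3-3B (11) and HNRNPAB (11). RBM3 is a cold-induced RNA-binding protein, TPT1 the translationally controlled tumour protein, EGR1 a zinc finger factor of the immediate early response, EIF1 an initiation factor, and H3-3B a replication-independent histone H3 gene. All sites lay past it in KLHDC3 (12), PDCD5 (12) and PFN1 (10), and 17 of 18 did in NOP56. PFN1 encodes the actin-binding protein profilin, and NOP56 a core protein of box C/D snoRNA particles. The RefSeq span takes the outermost start and end, so an unused start shifts these positions.

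Several of the site-rich short genes carry snoRNAs in their introns, and positions could be measured from these. In short genes with a site, 28 snoRNA genes were annotated in 12 hosts, and 5 of the snoRNAs held a site. Downstream of the snoRNA, in the direction of the host, the next site was at most 100 nt away for 14 of the 28, and upstream for 7. The median distance to the next downstream site was 86.5 nt (quartiles 33 and 244.5, over 24 snoRNAs with such a site). In HSPA8, a constitutive HSP70 chaperone, it was 34 nt for SNORD14C, 30 nt for SNORD14D and 111 nt for SNORD14E. In EEF1B2 it was 78 nt for SNORD51 and 95 nt for SNORA41. Exons were not used here, so these are distances and not positions in an intron. Neighbouring sites in short genes lay a median of 133 nt apart. No other points of the hosts were measured for comparison, so a preference for either side of a snoRNA was not tested.

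Gene groups were compared by how many of their short members had a site, beside the 15.0% of all short genes. Sites in more than 1 protein-coding gene were left out, so a gene that overlaps another can show 0 or too few. That background includes 1245 genes under 2 kb, of which 3.53% had a site, and it was 25.8% from 6 to 8 kb. The translation factor, proteasome and glycolysis lists had no gene under 2 kb, so the 15.0% is a low background for them. All 12 short translation factors had a site, with a median of 10. After EIF4A2 and RACK1 the highest counts were 13 in EEF1A1 and 13 in TPT1, and EIF4A1 had the fewest, 1. Of 15 short splicing factor genes 11 had a site (73.3%), led by HNRNPA1, SRSF7, HNRNPDL, SRSF5 with 20 and SRSF2 with 18, while SRSF6, SNRPD2, SF3B5 and U2AF1L4 had 0. Of 31 short genes of the respiratory chain and ATP synthase 24 had a site (77.4%), but with a median of 2.5 sites among those 24. ATP5F1B with 29 and NDUFV1, a complex I subunit, with 16 stood above the rest, where the highest count was 9. Of 10 proteasome genes 7 had a site, with 9 in PSMB4, and the 3 without were PSMB8, PSMB9 and PSMB10, the catalytic subunits of the immunoproteasome.

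Cytoskeletal genes had a site in 11 of 15 cases, with 16 sites in ACTB, 14 in TUBB, 14 in MYL6 and 11 in ACTG1, and none in TUBA1A, TUBB2A, TUBB2B or TMSB10. Of the iron and ubiquitin genes 6 of 7 had a site, with 9 in FTL but 4 in FTH1, the ferritin heavy chain. Glycolytic genes had a site in 3 of 5, with 12 in GAPDH and 7 in TPI1. In the group of nucleolar and polymerase subunit genes it was 3 of 8, with 18 in NOP56. Chaperones divided sharply. Among 12 of them HSP90AB1, HSPA5, PPIA, CALR, HSPA8 and PPIB had 26, 25, 18, 18, 15 and 4 sites. HSPA1A, HSPA1B, HSPA1L, HSPA6, HSPB1 and HSPE1 had 0. HSPA1A, HSPA1B and HSPA6 are heat-inducible HSP70 genes without introns, a description that does not extend to HSPA1L, HSPB1 and HSPE1. Whether introns bear on these counts was not tested.

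Of 24 short genes on a list recalled as intronless, 2 had a site (8.33%), H4C8 with 2 and IER2 with 1, a share not far from the background. The list is not complete, and 10 of the 24 were under 2 kb, where 3.53% of all genes had a site. On it JUN, RHOB, SOX4, HSPA1A and HSPA1B had 0. Of 34 histone genes on another list, 29 of them under 2 kb, 4 had a site (11.8%). H3-3B with 11 and H2AZ1 with 8 are replication-independent genes with introns, and H3C4 had 4. The list named immediate early, which also holds stress response genes such as DDIT3 and ATF4, had a site in 11 of 22 genes. MCL1, an anti-apoptotic BCL2 family member, had 17, EGR1 12 and GADD45A 10, and JUN, JUNB and JUND had 0. Of 10 globin genes HBA1 had 3 sites and HBD 1, while HBG1, HBG2, HBE1 and HBZ, genes that K562 is known to express, had 0. Histone, HSP70 and globin families include near-identical copies, so their counts are uncertain. Shares near 15.0% say nothing about a group, and neither RNA abundance nor intron number was measured here.

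**Figure D5:**
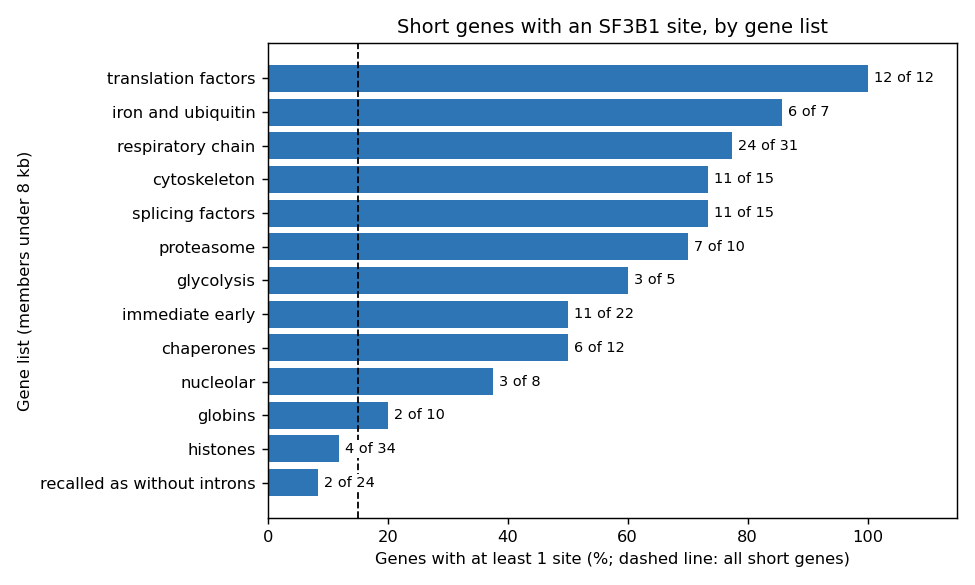
Percent of the short members of each gene list that had at least 1 site, with the number of genes beside each bar. The dashed line marks the 15.0% of all short genes. Translation factors (12 of 12) are highest and genes recalled as without introns (2 of 24) lowest.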

How the data were processed

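Per the file headers, the authors deposited merged binding sites of 5 nt, found in every replicate of either condition. The deposited score was 0 in each row. The name column holds a region number, of unit other in the deposited file, which several sites can share. It was used only to keep 1 site per number. The submitters' processing notes name the builds GRCh38.p10 and GRCh38.p12, STAR 2.7.3a and 2.6.1b, UMI-tools 1.0.0, bedtools 2.27.1 and FastQC 0.11.8. The site caller is not given in the sources used here.

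Positions were made 1-based, and the centre was the position. Gene spans came from RefSeq GRCh38.p14, and strand and promoter letters from its promoter table. For 128 genes with a site that the promoter table does not list, the strand was that of most sites. Sites in more than 1 protein-coding gene (2146) or in none (2905) were left out. The members, gene lists and spans were chosen with earlier results of these data known. Named genes were the 10 with most sites, the 10 with most sites per kb among those with at least 5, the 5 shortest with at least 3, and the leading and empty members of the gene lists; other genes named were chosen after their values were seen. The gene given to 500 sites was checked by a plain scan of the table, with 500 equal, and measures were tested on simulated data. Python 3.11.15, NumPy 2.4.6, pandas 2.3.3, SciPy 1.17.1 and Matplotlib 3.10.9 were used.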

Additional observations from a re-analysis of the deposited data

How the results depend on the processing

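Of 47 recalculations of 10 results, 46 planned and 1 added after seeing the data, 30 stayed within the 95% interval of the reported value, or within 1.5 times of a count, and 17 moved. Genes under 5 kb held 1419 sites in 331 genes at 1.28 sites per kb, and genes under 10 kb gave 0.937 sites per kb. The density was 0.972 with 1 site per region number, 1.02 with touching sites merged, 1.31 in genes with at least 2 sites and 1.83 in the 296 genes with at least 5. Over all short genes, with or without a site, the added alternative, it was 0.210. Neighbours 5 to 12 nt apart made up 9.02% with 1 site per region number, 14.7% with touching sites merged and 21.3% in genes under 5 kb. Pairs 140 to 180 nt apart made up 69.0% of both long spans on the minus strand, against 65.2%. In the 174 genes that overlap no other annotated gene, 48.5% of sites lay past the midpoint, against 50.7%, and 100% on the majority strand, against 99.96%. Linking at 40 nt left 69.9% of clusters with 1 site. The share in stretches 4 to 7 and the share of pairs 25 to 45 nt apart stayed within their intervals in every alternative run on them. No replicate could be left out. No paired analysis was possible because replicates were merged before deposit. Depth is unknown, so absence of a site sets no limit on binding.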

Other observations

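Sites in short genes lay almost always on the strand of the gene. In the 570 genes whose strand RefSeq lists, 2929 of 2945 sites (99.5%, Wilson interval 99.1% to 99.7%) were on it. The 16 exceptions lay in 5 genes, and in each of these all sites were on the other strand: 5 in GHRL, 4 in ATXN3L, 4 in HEXIM1, 2 in TSSK3 and 1 in POLR1H. GHRL encodes the hormone ghrelin, HEXIM1 an inhibitor of the elongation factor P-TEFb, and TSSK3 a kinase of the testis. Counts in these 5 genes therefore do not describe their own RNA.

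Chromosome 1 held the most sites in short genes, 367 (9.93%), followed by chromosome 17 with 355 (9.61%). These chromosomes had 10.2% and 7.54% of all short genes. Short genes held 8.41% of the sites of chromosome 19 and 7.07% of those of chromosome 17, against 3.82% in the whole list and 0.826% on chromosome 18. Chromosome 19 had 8.15% of the short genes and chromosome 18 had 0.582%, so these shares cannot be read apart from where short genes lie. Chromosome 12 had the highest share of short genes with a site, 20.95% (44 of 210), and chromosome 13 the lowest, 4.00% (2 of 50).

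Some site-rich short genes are known for expression in other tissues. PRSS21, a serine protease of the testis, had 16 sites, and PAEP, the glycodelin gene of the endometrium, had 13, of which 12 lay past the midpoint. This pair was picked after seeing the counts, and no expression was measured here.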
